A study of Gallus gallus and Dromaius novaehollandiae with 40 samples.

Results

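The genes described here are the forkhead (FOX) and SOX transcription factors counted in early limb-forming tissue of 2 birds, the chick (Gallus gallus) and the emu (Dromaius novaehollandiae). They are all symbols that begin with FOX, a letter and a digit, or with SOX and a digit, except FOXA2, SOX3 and SOX18. The rule gave 31 genes, 14 SOX and 17 FOX, of the 12338 symbols listed for each species. The rule reads names and no measured value, but it was set with earlier results of these data known. Of the 31, 30 are current symbols in the RefSeq gene table of the chicken (FOXJ2 is not).

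The study compares tissues between the emu, whose wing buds grow late and stay small, and the chick. All tissue was from the level of the forelimb and no group was treated. When the lateral plate mesoderm splits, its outer part forms the somatopleure with the ectoderm, the source of the limb bud. Its inner part, facing the gut, forms the splanchnopleure. In the chick, somatopleure 15, 60 and 63 and splanchnopleure 50, 61 and 64 are labelled Hamburger-Hamilton stage (HH) 13, and lateral plate 30, 31 and 32, not yet split, HH10. In the emu, somatopleure 5 and 53 and splanchnopleure 6 and pool are labelled HH13, and lateral plate 8 and 23 HH10. Emu somatopleure 13 is labelled HH10 and emu lateral plate 1 HH13, against the other libraries of their tissues, so both were grouped by tissue. Apart from these, tissue and stage change together and cannot be told apart in a comparison with the lateral plate. Whether libraries of a tissue came from separate embryos is not stated in the labels, nor is what the pool holds, so p-values measure the spread between these libraries, which may be technical.

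SOX proteins bind DNA through an HMG box, which bends the double helix, and FOX proteins through a winged-helix domain. SOX genes fall into lettered classes whose members share sequence and often tissue: SOXC genes in mesenchymal and neural progenitors, SOXD and SOXE genes together in cartilage, SOXE genes in neural crest, SOXF genes in the lining of blood vessels. FOX genes range from factors of a single organ to widely expressed regulators of the cell cycle, of metabolism and of the response to insulin. Both families also include factors that hold other cells of the region in their fates, so their levels in dissected tissue carry a mixture of cells. In such tissue, fewer cells of a type and less RNA per cell cannot be told apart.

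The 9 chick libraries held 5061393 to 8348865 counts and the 8 emu libraries 7350786 to 8601471. Levels are in CPM, read counts scaled to library size by TMM within a species, and a gene is said to have changed where edgeR's quasi-likelihood test gave an adjusted p under 0.05. The tissue labels were set against marker lists. Of 12 somatic mesoderm markers 9 were counted, and their summed level was 1041 to 1274 CPM in chick somatopleure, 64.2 to 159 in chick splanchnopleure and 198 to 333 in chick lateral plate. In the emu it was 511, 213 and 218 CPM in somatopleure 5, 13 and 53, 42.0 to 148 in splanchnopleure and 135 to 200 in lateral plate, where ALX1 had no count. Emu somatopleure 13 and 53 thus lay close to the highest lateral plate library. For 9 of 12 splanchnic mesoderm markers the sum was 605 to 792 CPM in chick splanchnopleure and 306 to 384 in chick somatopleure, where NKX2-5 had no count. In the emu that sum was 905 to 923 CPM in splanchnopleure and 487 to 802 in somatopleure. In lateral plate it was 270 to 553 CPM in the chick and 254 to 522 in the emu, overlapping the somatopleure in each species.

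Of the 31 genes, 13 changed in at least 1 comparison and 18 in none. Counts were high enough to test 21 genes in the chick and 25 in the emu, 20 of them in both. A gene could pass that filter through a single tissue. In the emu SOX8 and FOXI3 passed it only through somatopleure and lateral plate, the tissues where they are higher. Their emu calls, counted below, are thus no independent support for that order. For chick somatopleure set against lateral plate, FOXP2, SOX5 and SOX6 rose and SOX7 and SOX13 fell. Those 5 were among 21 tested, while 9.8% of all 10071 genes tested changed (3.52% rose, 6.28% fell). For chick splanchnopleure set against lateral plate, FOXP1, FOXP2 and SOX5 rose and SOX11 and SOX13 fell, again 5 of 21, with 16.9% of all genes changed (9.07% rose, 7.78% fell). The changed genes were 2, FOXP1 and FOXP2, when lateral plate 30, lateral plate 32 or splanchnopleure 64 was left out. Between the chick layers SOX6 and SOX11 were higher and SOX7, FOXP1, FOXK1 and FOXO3 lower in the somatopleure. These were 6 of 21 genes, with 19.1% of all genes changed (7.34% higher, 11.8% lower). The median log2 fold changes of the 21 were 0.10, 0.20 and -0.03 in that order, and those of all genes 0.00, 0.01 and 0.00 after rounding.

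In the emu somatopleure against the lateral plate edgeR called none of the 25 genes, and 0% of 10640 genes. At an unadjusted p under 0.05 there were 2 of the 25 (FOXP2 and SOX11) and 1107 of all genes, and DESeq2 called none of these genes and 144 of all genes. In the emu splanchnopleure against the lateral plate, SOX4, SOX7 and FOXP1 rose and SOX8, SOX9, SOX11 and FOXI3 fell. Those were 7 of 25, with 20.6% of all genes changed (11.4% rose, 9.21% fell). Between the emu layers SOX8, SOX9, SOX11 and FOXI3 were higher and SOX7, FOXP1 and FOXK1 lower in the somatopleure. These too were 7 of 25, with 13.4% of all genes changed (5.05% higher, 8.34% lower). Median log2 fold changes of the 25 were -0.03, 0.21 and 0.05, against 0.01, 0.00 and 0.04 for all genes. The emu calls rest on few libraries: without splanchnopleure 6, 1 of these genes (SOX11) changed against the lateral plate and none between the layers. Without somatopleure 13 and lateral plate 1, the libraries of discordant stage, 1 changed in each of these comparisons. Beside each emu gene below, the libraries without which its call was lost are named with their adjusted p.

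**Figure D1:**
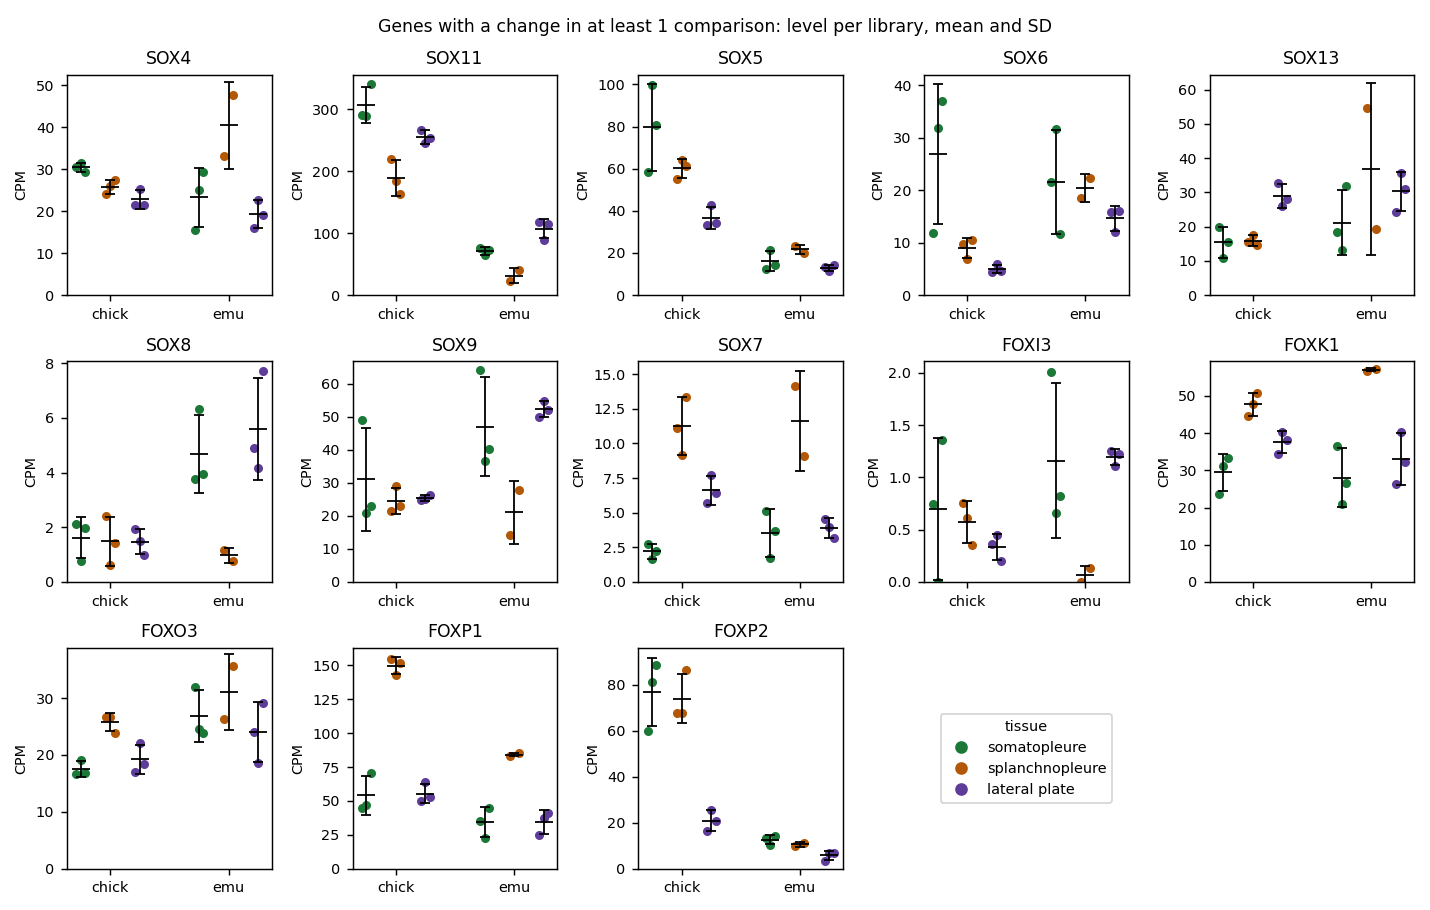
Level in CPM (linear axis from 0) of the 13 genes that changed, in each library of chick and emu, by tissue, with mean and SD (n = 3 per tissue, 2 for emu splanchnopleure). FOXP1 is highest in the splanchnopleure of both species, and SOX11 lowest there.

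SOX11 and SOX4 are SOXC genes, transcriptional activators of mesenchymal and neural progenitors. SOX11 stood at 291, 290 and 340 CPM in chick somatopleure (libraries 15, 60 and 63), 220, 184 and 163 in splanchnopleure (50, 61 and 64) and 267, 246 and 253 in lateral plate (30, 31 and 32). The 3 tissues do not overlap, with the splanchnopleure lowest. Its level was higher in somatopleure than in splanchnopleure by 0.70 on the log2 scale (SE 0.11, adjusted p = 0.00146), and the splanchnopleure fell by 0.43 against the lateral plate (SE 0.11, adjusted p = 0.0234). Leaving out lateral plate 30 (0.0847), lateral plate 32 (0.0691), splanchnopleure 61 (0.0556) or splanchnopleure 64 (0.081) ended the call against the lateral plate. The somatopleure was 0.27 above the lateral plate on the log2 scale (SE 0.11, adjusted p = 0.168).

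In the emu SOX11 stood at 63.8, 75.8 and 73.2 CPM in somatopleure (libraries 5, 13 and 53), 22.3 and 40.0 in splanchnopleure (6 and pool) and 118, 115 and 89.0 in lateral plate (1, 8 and 23). Again the tissues do not overlap and the splanchnopleure is lowest, but here the somatopleure lies below the lateral plate and not above it. The splanchnopleure fell by 1.78 against the lateral plate (SE 0.25, adjusted p = 0.00361), a call kept in all 10 alternatives. The somatopleure was higher than the splanchnopleure by 1.19 (SE 0.24, adjusted p = 0.0182). That call was lost without splanchnopleure 6 (0.101), without both libraries of discordant stage (0.0773) or when the fit held only the layers compared (0.0582). Against the lateral plate the emu somatopleure was at -0.60 (SE 0.21, adjusted p = 0.381).

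SOX4 differed in the emu: it stood at 25.1, 15.4 and 29.2 CPM in somatopleure 5, 13 and 53, 33.1 and 47.7 in splanchnopleure 6 and pool, and 16.0, 18.98 and 22.7 in lateral plate 1, 8 and 23. Both splanchnopleure libraries lie above all others. SOX4 rose in the splanchnopleure by 1.07 (SE 0.29, adjusted p = 0.0311). The call was lost without splanchnopleure pool (0.164) or 6 (0.0737), lateral plate 1 (0.105) or 8 (0.0814), or both libraries of discordant stage (0.0657). In the chick SOX4 was at 30.5, 31.5 and 29.4 CPM in somatopleure 15, 60 and 63, 24.04, 26.03 and 27.3 in splanchnopleure 50, 61 and 64, and 21.5, 25.4 and 21.4 in lateral plate 30, 31 and 32. The somatopleure lies above both other tissues, which overlap. Its log2 fold changes were 0.42 for somatopleure and 0.18 for splanchnopleure against lateral plate (adjusted p = 0.084 and 0.411).

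SOX5, SOX6 and SOX13 are SOXD genes. They carry no activation domain of their own, and SOX5 and SOX6 act beside SOX9 at cartilage genes in the mouse. Among them SOX6 had the largest change: 11.9, 31.8 and 37.1 CPM in chick somatopleure 15, 60 and 63, 9.77, 6.89 and 10.4 in splanchnopleure 50, 61 and 64, and 4.48, 5.93 and 4.61 in lateral plate 30, 31 and 32. All somatopleure libraries are above all others, with library 15 close to the splanchnopleure. SOX6 rose in the somatopleure by 2.42 against the lateral plate (SE 0.39, adjusted p = 0.00269) and was 1.57 above the splanchnopleure (SE 0.37, adjusted p = 0.0125). In the emu SOX6 ranged from 11.6 to 31.6 CPM and its somatopleure and lateral plate overlap (31.6, 21.5 and 11.6 CPM in somatopleure 5, 13 and 53, and 15.8, 16.0 and 11.9 in lateral plate 1, 8 and 23), the somatopleure being 0.56 higher on the log2 scale (SE 0.33, adjusted p = 0.589).

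SOX5 stood at 58.5, 99.7 and 80.8 CPM in chick somatopleure 15, 60 and 63, 55.3, 64 and 61.2 in splanchnopleure 50, 61 and 64, and 33.2, 42.7 and 34.1 in lateral plate 30, 31 and 32. Both layers lie above the lateral plate and overlap each other. The rise was 1.12 in the somatopleure (SE 0.18, adjusted p = 0.00301) and 0.71 in the splanchnopleure (SE 0.18, adjusted p = 0.0236). The second call ended when lateral plate 30 (0.0963), lateral plate 32 (0.0889), splanchnopleure 61 (0.0556) or splanchnopleure 64 (0.0689) was left out. In the emu SOX5 was at 21.6, 12.4 and 14.2 CPM in somatopleure 5, 13 and 53, 23.2 and 20.05 in splanchnopleure 6 and pool, and 13.2, 14.2 and 11.4 in lateral plate 1, 8 and 23. It had log2 fold changes of 0.31 in the somatopleure and 0.74 in the splanchnopleure against the lateral plate (adjusted p = 0.691 and 0.0795, the second 0.0412 when the fit held only these tissues). Between the chick layers SOX5 passed without somatopleure 15 (0.0143), its lowest somatopleure library, so that result adds nothing.

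SOX13 went the other way in the chick: 19.9, 10.95 and 15.4 CPM in somatopleure 15, 60 and 63, 15.5, 17.6 and 14.6 in splanchnopleure 50, 61 and 64, and 32.8, 26.1 and 28.0 in lateral plate 30, 31 and 32. Both layers lie below the lateral plate. SOX13 fell by 0.91 in the somatopleure (SE 0.22, adjusted p = 0.0214) and by 0.87 in the splanchnopleure (SE 0.22, adjusted p = 0.0205). Leaving out lateral plate 30 (0.0955), lateral plate 32 (0.0628), somatopleure 60 (0.0627) or somatopleure 63 (0.0582) ended the somatopleure call. The splanchnopleure call ended without lateral plate 30 (0.0841), lateral plate 32 (0.0589), splanchnopleure 50 (0.054) or splanchnopleure 64 (0.077). Somite markers (8 of 11 counted, none at 0) summed to 8.99 to 13.1 CPM in chick somatopleure, 25.1 to 34.3 in splanchnopleure and 473, 78.4 and 198.5 in lateral plate 30, 31 and 32, the same order of lateral plate libraries as for SOX13. Posterior growth zone markers (6 of 11 counted) summed to 63.5 to 92.8 CPM in chick somatopleure, 49.7 to 72.3 in splanchnopleure, where FGF8 had no count, and 392.4, 95.04 and 124 in those lateral plate libraries. Their part in SOX13 was not tested. In the emu SOX13 was spread within tissues: 13.3, 18.5 and 31.8 CPM in somatopleure 5, 13 and 53, 54.5 and 19.2 in splanchnopleure 6 and pool, and 24.3, 31.1 and 35.6 in lateral plate 1, 8 and 23. The tissues overlap and none of the emu comparisons passed.

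**Figure D2:**
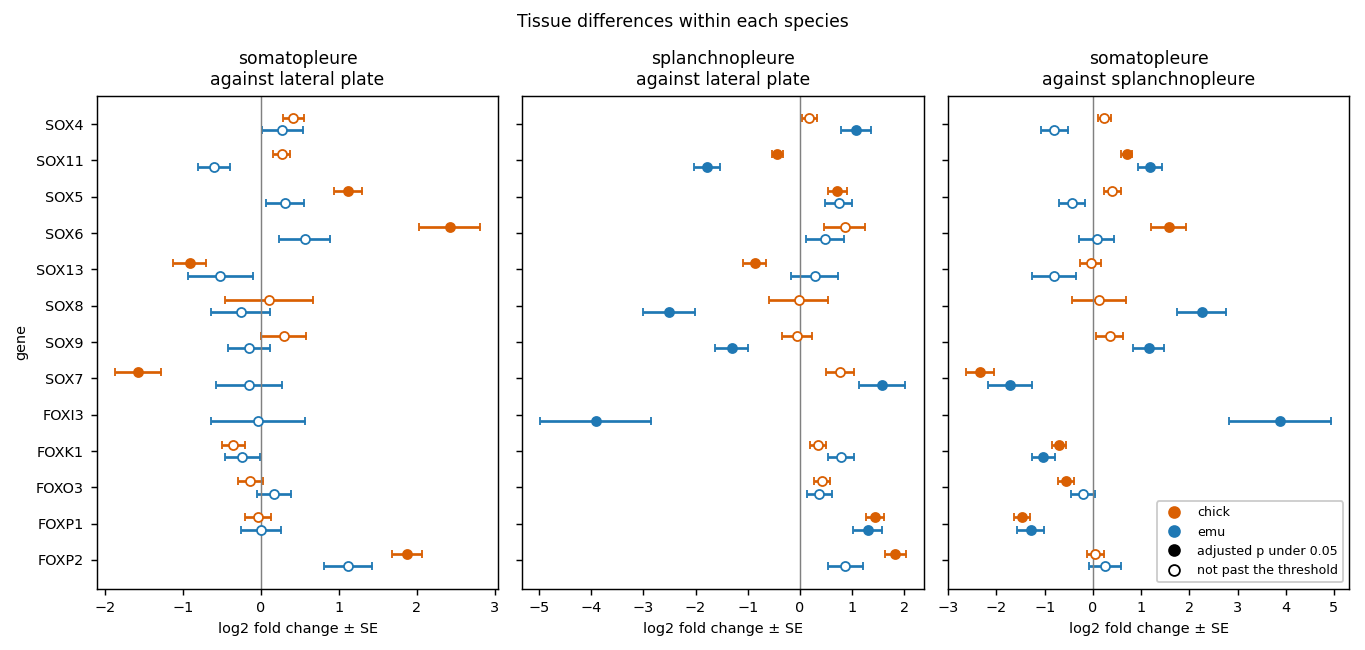
Log2 fold change with its standard error for the 13 genes that changed, in 3 tissue comparisons, for chick and emu. Filled points have an adjusted p under 0.05; in the somatopleure against the lateral plate all filled points are chick. FOXI3 was not tested in the chick.

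SOX8, SOX9 and SOX10 are SOXE genes. SOX9 starts cartilage and SOX10 maintains neural crest and its glia. In the emu SOX9 stood at 36.7, 64.2 and 40.1 CPM in somatopleure 5, 13 and 53, 14.3 and 27.8 in splanchnopleure 6 and pool, and 50.0, 52.2 and 54.8 in lateral plate 1, 8 and 23. Both splanchnopleure libraries lie below all others. SOX9 fell by 1.31 in the splanchnopleure against the lateral plate (SE 0.32, adjusted p = 0.0221) and was 1.16 higher in somatopleure than in splanchnopleure (SE 0.32, adjusted p = 0.0441). The fall was lost without splanchnopleure 6 (0.149), lateral plate 1 (0.059), 8 (0.0554) or 23 (0.056), or both libraries of discordant stage (0.0523). The difference between the layers was lost without splanchnopleure 6 (0.278), somatopleure 13 (0.101) or 53 (0.0611) or both libraries of discordant stage (0.145), and when the fit held only these layers (0.125).

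By tissue, SOX8 was lowest in the emu splanchnopleure, as SOX9 was. It had 6.31, 3.77 and 3.96 CPM in somatopleure 5, 13 and 53, 1.16 and 0.776 in splanchnopleure 6 and pool, and 4.91, 7.72 and 4.19 in lateral plate 1, 8 and 23. These levels rest on 6 to 63 counts per library, and the splanchnopleure is apart from both other tissues. SOX8 passed the filter only through those other tissues, so its tests are no independent support for that order. SOX8 fell by 2.51 in the splanchnopleure against the lateral plate (SE 0.50, adjusted p = 0.0116) and was 2.25 higher in somatopleure than in splanchnopleure (SE 0.50, adjusted p = 0.0229). The fall was lost without splanchnopleure 6 (0.0694) or pool (0.0577) or both libraries of discordant stage (0.0501). The difference between the layers was lost without splanchnopleure 6 (0.12) or pool (0.0944) or both libraries of discordant stage (0.0693), and when the fit held only these layers (0.0646).

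Surface ectoderm and nephric markers were lowest in the emu splanchnopleure, as SOX8 and SOX9 were, and the sum of neural crest markers was not. GATA3 is in both the surface ectoderm and the nephric list, so these sums are not separate evidence. Of 12 surface ectoderm markers 7 were counted, and their summed level was 334 to 556 CPM in emu somatopleure, 253 to 268 in splanchnopleure and 412 to 535 in lateral plate, with none of the 7 at 0. Nephric markers (3 of 8 counted, none at 0) summed to 14.1, 54.5 and 41.9 CPM in emu somatopleure 5, 13 and 53, 7.09 and 2.33 in splanchnopleure 6 and pool, and 46.2 to 52.7 in lateral plate. Somatopleure 13 was highest in the emu for both this sum and SOX9. SOX8 went the other way among the somatopleure libraries. It was lowest in somatopleure 13 (3.77 CPM) and highest in somatopleure 5 (6.31 CPM), where the nephric sum was lowest. For neural crest markers (5 of 9 counted) the sum was 161 to 230 CPM in emu somatopleure, 212 to 351 in splanchnopleure and 203 to 275 in lateral plate. The neural crest sum and the medians of its genes went different ways. The median log2 fold change of the 4 neural crest markers tested was -0.67 for splanchnopleure against lateral plate and 0.56 between the layers. TFAP2B was called lower in the splanchnopleure both times. The part of ectoderm, nephric tissue and neural crest in these SOXE values was not tested.

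In the chick SOX9 was at 49.1, 21.0 and 23.1 CPM in somatopleure 15, 60 and 63, 21.3, 28.9 and 23.1 in splanchnopleure 50, 61 and 64, and 24.7, 25.1 and 26.4 in lateral plate 30, 31 and 32. Only somatopleure 15 stands out, and no comparison passed (log2 fold changes of 0.29, -0.05 and 0.35 for somatopleure against lateral plate, splanchnopleure against lateral plate and somatopleure against splanchnopleure). That library also had the highest summed level in the chick of nephric markers (86.3 CPM, against 23.3 and 39.3 in somatopleure 60 and 63), blood markers (26.5 against 3.18 and 2.59) and neural crest markers (128 against 73.9 and 80.4). Their part in its SOX9 level was not tested. SOX8 had 4 to 17 counts per chick library and did not pass either.

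SOX10 had 13, 13 and 15 counts in chick somatopleure 15, 60 and 63, 0, 5 and 0 in splanchnopleure 50, 61 and 64, and 7, 4 and 0 in lateral plate 30, 31 and 32. The somatopleure libraries lie above the rest at 1.62 to 1.85 CPM. SOX10 passed the filter in the chick through the somatopleure alone, the tissue where it is highest, so its test is no independent support for that order. The difference from the splanchnopleure was 2.77 on the log2 scale (SE 0.98, adjusted p = 0.0741). It was past the threshold only without splanchnopleure 61 (0.0146), the only splanchnopleure library with any count, so that result adds nothing. In the emu SOX10 had 3 counts or fewer per library and was not tested.

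SOX7 and SOX17 are SOXF genes of the endothelium, and SOX17 is also a factor of the endoderm. SOX7 stood at 2.75, 1.66 and 2.22 CPM in chick somatopleure 15, 60 and 63, 11.1, 9.19 and 13.4 in splanchnopleure 50, 61 and 64, and 5.69, 7.71 and 6.41 in lateral plate 30, 31 and 32. The tissues do not overlap. SOX7 fell by 1.57 in the somatopleure against the lateral plate (SE 0.30, adjusted p = 0.00667) and was lower by 2.34 than in the splanchnopleure (SE 0.29, adjusted p = 0.000318). The splanchnopleure was 0.77 above the lateral plate (SE 0.27, adjusted p = 0.0743, and 0.0484 when the fit held only these tissues).

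In the emu SOX7 was at 1.71, 5.15 and 3.69 CPM in somatopleure 5, 13 and 53, 14.2 and 9.06 in splanchnopleure 6 and pool, and 4.57, 3.18 and 3.94 in lateral plate 1, 8 and 23. The splanchnopleure is highest, as in the chick, while somatopleure and lateral plate overlap. SOX7 rose by 1.57 in the splanchnopleure (SE 0.45, adjusted p = 0.0384), and was lower by 1.72 in somatopleure than in splanchnopleure (SE 0.45, adjusted p = 0.039). The rise was lost without any 1 of its 5 libraries (0.0538 without splanchnopleure pool, 0.249 without splanchnopleure 6, and 0.0882, 0.112 and 0.0909 without lateral plate 1, 8 and 23) or without both libraries of discordant stage (0.0866). The difference between the layers was lost without somatopleure 53 (0.0767), splanchnopleure 6 (0.277) or pool (0.0532) or both libraries of discordant stage (0.0693), and when the fit held only these layers (0.103).

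SOX17 was spread within the emu tissues: 2.63, 3.77 and 14.8 CPM in somatopleure 5, 13 and 53, 20.9 and 6.08 in splanchnopleure 6 and pool, and 6.74, 10.04 and 12.1 in lateral plate 1, 8 and 23. The emu tissues overlap and no comparison passed. Endoderm markers (9 of 14 counted) summed to 672, 582 and 546 CPM in emu somatopleure 5, 13 and 53. The sums were 470 and 652 in splanchnopleure 6 and pool, and 559, 542 and 717 in lateral plate 1, 8 and 23. Within each layer the order of libraries was opposite to that of SOX17, while lateral plate 23 was highest of its tissue for both. The sums of the emu layers overlap, but of 8 endoderm markers tested 3 were lower in somatopleure than in splanchnopleure and none higher. Their median log2 fold change was -1.50, against 0.04 for all genes, of which 8.34% were lower. In the emu splanchnopleure against the lateral plate 1 rose and none fell (median 0.88, against 0.00 for all genes, of which 11.4% rose). The part of endoderm in SOX17 was not tested. In the chick SOX17 had 11 counts at most, with 3, 0 and 1 in somatopleure 15, 60 and 63 and 11, 10 and 5 in lateral plate 30, 31 and 32 (log2 fold change -2.83, SE 0.81, adjusted p = 0.0503). Without somatopleure 15 it passed, both against the lateral plate (adjusted p = 0.0332) and against the splanchnopleure (0.0348). That library had the most SOX17 counts of the chick somatopleure, so leaving it out could only deepen the fall and adds nothing. SOX17 passed the chick filter only through lateral plate and splanchnopleure, where it is higher. Its chick tests are therefore no independent support for that order.

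Endothelial markers were lowest in the chick somatopleure and highest in the emu splanchnopleure, as SOX7 was. Of 11 such markers 9 were counted and none was at 0 in any tissue. Their sum was 238 to 384 CPM in chick somatopleure, 920 to 1400 in splanchnopleure and 815 to 1050 in lateral plate. In the emu it was 244 to 547 CPM in somatopleure, 975 and 1884 in splanchnopleure pool and 6, and 467 to 580 in lateral plate. By library, emu splanchnopleure 6 had the highest sum in the emu and the highest SOX7, SOX13 and SOX17, and somatopleure 5 the lowest sum and the lowest of all 3. Emu splanchnopleure pool had the next highest sum. Its SOX17 (6.08 CPM) and SOX13 (19.2 CPM) nevertheless lay below every emu lateral plate library. Chick SOX13 was lower in the splanchnopleure than in the lateral plate, while the marker sums of these tissues overlap. The part of endothelial cells in these values was not tested. In a wider list of SOXF-related endothelial genes, 11 of 16 were tested. Of these, 9 are the markers just summed, so the counts largely repeat that list and are no separate evidence. In chick somatopleure 9 of the 11 tested were below the lateral plate by the test and none above it, where 6.28% of all genes fell. TEK, an angiopoietin receptor, was at -2.70 and FLI1, an ETS factor, at -2.41. The median log2 fold change of the 11 was -1.74, against 0.00 for all genes. In the emu splanchnopleure against the lateral plate 8 rose and none fell (median 1.55, against 0.00 for all genes, of which 11.4% rose), with TEK at 1.98. In the chick splanchnopleure 1 rose (TIE1, 0.68), where 9.07% of all genes rose.

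**Figure D3:**
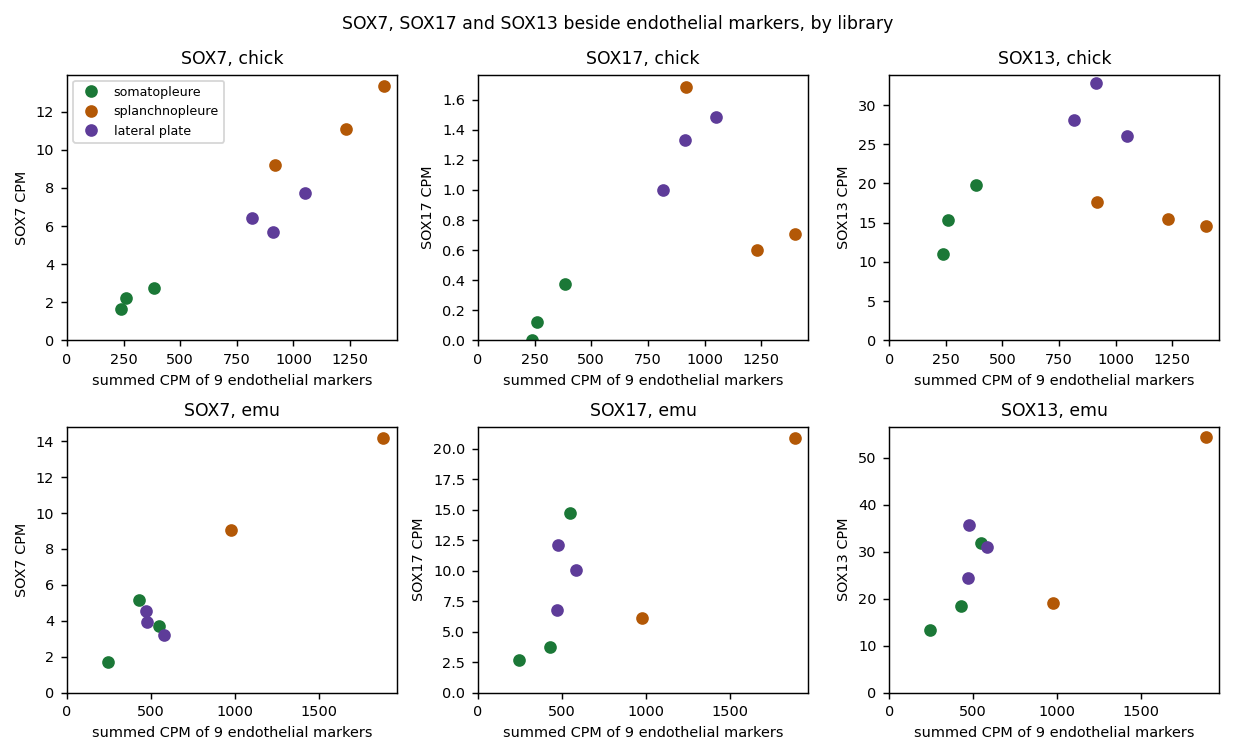
Level of SOX7, SOX17 and SOX13 in CPM against the summed CPM of 9 endothelial markers, a point per library (9 chick, 8 emu), coloured by tissue. Among chick tissues SOX7 and the marker sum are lowest in the somatopleure, and among emu libraries splanchnopleure 6 lies highest on both axes for all 3 genes. Emu splanchnopleure pool has the next highest sum, with SOX17 and SOX13 below every emu lateral plate library.

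FOXP1 and FOXP2 encode repressors that can pair with each other. FOXP1 is known from heart, lung and blood cell development and FOXP2 from neural circuits of vocal learning. FOXP1 stood at 44.7, 47.1 and 70.5 CPM in chick somatopleure 15, 60 and 63, 155, 143 and 152 in splanchnopleure 50, 61 and 64, and 49.7, 63.6 and 53.1 in lateral plate 30, 31 and 32. The splanchnopleure is apart from both other tissues, which overlap. FOXP1 rose in the splanchnopleure by 1.43 against the lateral plate (SE 0.17, adjusted p = 0.000545), and was lower by 1.47 in somatopleure than in splanchnopleure (SE 0.17, adjusted p = 0.000168). Between somatopleure and lateral plate its log2 fold change was -0.04 (SE 0.17).

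The emu showed the same order for FOXP1: 23.01, 35.4 and 44.8 CPM in somatopleure 5, 13 and 53, 83.4 and 85.0 in splanchnopleure 6 and pool, and 24.7, 41.0 and 37.4 in lateral plate 1, 8 and 23. FOXP1 rose in the splanchnopleure by 1.29 (SE 0.28, adjusted p = 0.0151) and was lower by 1.29 in somatopleure than in splanchnopleure (SE 0.28, adjusted p = 0.0209). The rise was lost without splanchnopleure 6 (0.0893) or both libraries of discordant stage (0.0741). The difference between the layers was lost without somatopleure 13 (0.0571), splanchnopleure 6 (0.124) or pool (0.0615) or both libraries of discordant stage (0.0635).

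FOXP2 stood at 60.2, 81.5 and 88.6 CPM in chick somatopleure 15, 60 and 63, 67.9, 67.8 and 86.5 in splanchnopleure 50, 61 and 64, and 16.5, 25.7 and 20.8 in lateral plate 30, 31 and 32. Both layers lie far above the lateral plate and overlap each other. The rise was 1.88 in the somatopleure (SE 0.20, adjusted p = 0.000222) and 1.83 in the splanchnopleure (SE 0.20, adjusted p = 0.000339), and both calls held in all 10 alternatives. In the emu FOXP2 was at 10.4, 13.4 and 14.1 CPM in somatopleure 5, 13 and 53, 9.80 and 11.4 in splanchnopleure 6 and pool, and 3.54, 6.86 and 7.02 in lateral plate 1, 8 and 23. Here too both layers lie above the lateral plate without overlap, the somatopleure by 1.12 (SE 0.31, adjusted p = 0.331) and the splanchnopleure by 0.87 (SE 0.34, adjusted p = 0.0995), and neither passed.

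FOXK1, which with FOXK2 binds genes of metabolism and autophagy, was at 23.7, 31.2 and 33.4 CPM in chick somatopleure 15, 60 and 63, 44.6, 47.9 and 50.9 in splanchnopleure 50, 61 and 64, and 34.4, 40.3 and 38.3 in lateral plate 30, 31 and 32. It was lower by 0.70 in somatopleure than in splanchnopleure (SE 0.15, adjusted p = 0.00742). In the emu FOXK1 was at 20.9, 36.5 and 26.5 CPM in somatopleure 5, 13 and 53, and at 56.7 and 57.3 in splanchnopleure 6 and pool. The emu difference was -1.03 (SE 0.25, adjusted p = 0.0304), lost without somatopleure 53 (0.0707) or splanchnopleure 6 (0.157) or pool (0.0841) and when the fit held only these layers (0.0633). In both species the layers do not overlap. Against the emu lateral plate (26.4, 32.3 and 40.3 CPM in libraries 1, 8 and 23) the splanchnopleure was 0.79 higher (SE 0.25, adjusted p = 0.0512), which passed with RLE size factors (0.0485), with DESeq2 (0.0214) and when the fit held only these tissues (0.026).

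FOXO3, a factor that insulin signalling keeps out of the nucleus, was at 16.6, 19.1 and 16.7 CPM in chick somatopleure 15, 60 and 63, 26.6, 26.6 and 23.9 in splanchnopleure 50, 61 and 64, and 17.1, 22.1 and 18.4 in lateral plate 30, 31 and 32. It was lower in the somatopleure by 0.56 (SE 0.16, adjusted p = 0.0325). The call was lost without somatopleure 15 (0.0615) or 63 (0.0868) or splanchnopleure 50 (0.0796), 61 (0.0875) or 64 (0.0598), and when the fit held only these layers (0.0592). In the emu it was at 24.6, 32.02 and 23.9 CPM in somatopleure 5, 13 and 53, 26.3 and 35.7 in splanchnopleure 6 and pool, and 24.1, 29.1 and 18.6 in lateral plate 1, 8 and 23, with tissues that overlap. Of 16 genes known to respond to FOXO factors 14 were tested. In the chick somatopleure against splanchnopleure 4 of them were lower and none higher (median -0.46, against 0.00 for all genes, of which 11.8% were lower). PDK4, a kinase that turns down glucose oxidation, was at -3.20 and the repressor BCL6 at -2.27. Between the emu layers 2 were lower, BCL6 at -2.13 and KLF2, a factor of endothelium under flow, at -2.57 (median of the list -0.20, against 0.04 for all genes, of which 8.34% were lower). Against the lateral plate 3 of the 14 fell and none rose in the chick somatopleure (median -0.19), where 6.28% of all genes fell. In the splanchnopleure 2 rose in the chick (median 0.15) and 3 in the emu (0.38), and none fell. Among all genes 9.07% and 11.4% rose there. FOXO3 was called in none of these comparisons with the lateral plate. The part of FOXO3 in this list was not tested.

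FOXI3, a factor of the ectoderm that forms the ear and the pharyngeal arches, was low. It had 5, 16 and 6 counts in emu somatopleure 5, 13 and 53, 0 and 1 in splanchnopleure 6 and pool, and 11, 10 and 9 in lateral plate 1, 8 and 23. The splanchnopleure is apart from both other tissues. With 1 count over the splanchnopleure, the lateral plate stood at a ratio of 18.6 to it (exact 95% interval 3.08 to 757) and the somatopleure at 18.3 (3.01 to 748). The tests gave adjusted p = 0.0317 against the lateral plate and 0.044 between the layers. FOXI3 passed the filter in the emu only through lateral plate and somatopleure, the tissues where it is higher. Its tests are therefore no independent support for that order. The calls were lost with DESeq2 (0.0569 and 0.0766) and without splanchnopleure 6 (0.193 and 0.265) or pool (0.0589 and 0.0727), and that between the layers also without somatopleure 53 (0.0596). FOXI3 could be tested in 5 alternatives of the first and 7 of the second. In neither comparison did it pass the filter without both libraries of discordant stage, or in the fit of only the tissues compared. The same held for the first without lateral plate 1, 8 or 23 and for the second without somatopleure 13. Whether the calls hold without the libraries of discordant stage could therefore not be checked. The surface ectoderm markers given above for the emu were lowest in the same tissue, and their part in FOXI3 was not tested. In the chick FOXI3 had 0 to 11 counts per library and was not tested.

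Some widely expressed FOX genes, grouped here after their values were seen, passed in no comparison: FOXJ2, FOXK2, FOXM1, FOXN2, FOXN3 and FOXO4. Over 36 tissue comparisons of these 6 genes the log2 fold changes ran from -0.42 (FOXN3) to 0.26 (FOXJ2), and the lowest adjusted p was 0.0949. FOXM1, which drives genes of mitosis, was at 97.5, 79.9 and 70.3 CPM in chick somatopleure 15, 60 and 63, 105, 75.3 and 73.5 in splanchnopleure 50, 61 and 64, and 77.3, 73.7 and 61.3 in lateral plate 30, 31 and 32. In the emu FOXM1 kept to 52.4 to 71.1 CPM. Of 20 mitotic genes linked to FOXM1 16 were tested. In the emu splanchnopleure against the lateral plate 4 of them fell (median -0.22, against 0.00 for all genes, of which 9.21% fell). CDK1, the mitotic kinase, was at -0.65 and CCNB2, its cyclin, at -0.55. In the chick splanchnopleure 2 rose, CENPF and KIF23, both at 0.35 (median of the list 0.03, against 0.01 for all genes, of which 9.07% rose). FOXJ1, the switch for motile cilia, was at 0.726 to 3.61 CPM in the chick and 2.45 to 9.17 in the emu, and passed in no comparison.

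Apart from SOX30 in the emu (43 to 72 counts per library, past the threshold in no comparison), the remaining genes were at the edge of detection. SOX1, SOX2, FOXE3 and FOXI1 passed the filter in neither species, and SOX14, SOX30, FOXL2, FOXN1 and FOXI3 only in the emu. SOX1 and SOX2 mark neural progenitors, FOXE3 the lens, FOXL2 the ovary and FOXN1 the thymus. Leaving out SOX30 and FOXI3, these genes had at most 8 counts in a chick library and 29 in an emu library. FOXI1 had 3, 3 and 4 counts in chick splanchnopleure 50, 61 and 64 and none in the other 6 chick libraries. With the other tissue set at a floor of 3 counts per library, the observed level was 1.03-fold that of the lateral plate and 1.23-fold that of the somatopleure. No counting error was allowed on the splanchnopleure counts, so these are not lower bounds. SOX14 had 18, 8 and 9 counts in emu somatopleure 5, 13 and 53, 4 and 0 in splanchnopleure 6 and pool, and 18, 16 and 14 in lateral plate 1, 8 and 23. Its log2 fold change in the splanchnopleure was -2.82 against the lateral plate (adjusted p = 0.0554, and 0.036 with DESeq2). SOX14 passed the emu filter only through lateral plate and somatopleure, where it is higher, so its tests are no independent support for that order.

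**Figure D4:**
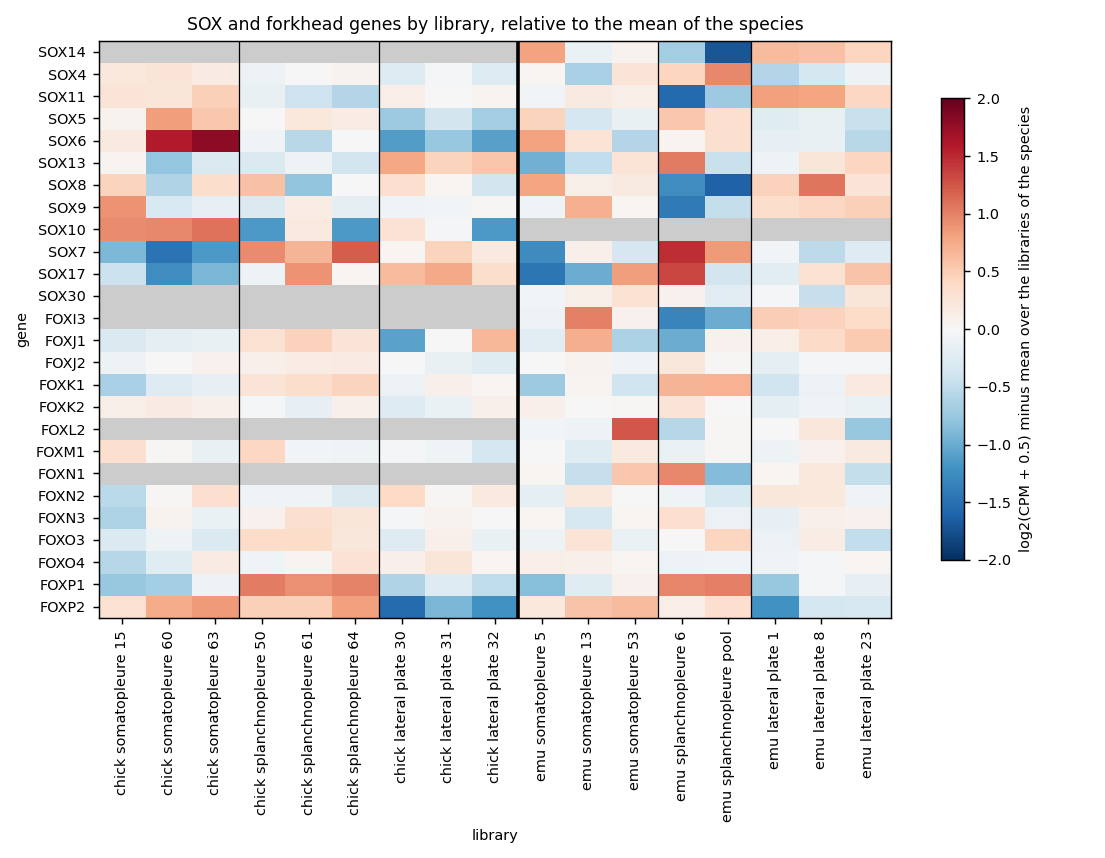
Heat map of log2(CPM + 0.5) minus the gene's mean over the libraries of its species, for the 26 genes tested in at least 1 species. Rows are genes and columns libraries by tissue; grey marks genes not tested in that species. FOXP2 is low in the lateral plate of both species and FOXP1 high in the splanchnopleure of both.

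The species were compared by the difference of their log2 fold changes, chick minus emu, in a joint fit over 11063 genes, of which 26 are genes of these families. SOX11 was the only one of the 26 past the threshold. Its splanchnopleure lay 0.43 below the lateral plate in the chick and 1.78 below it in the emu, a difference of 1.34 (SE 0.26, adjusted p = 0.00793) that passed in all 16 alternatives. Among all genes, 8.24% differed in that comparison (3.68% higher, 4.56% lower in the chick). In the somatopleure against the lateral plate none of the 26 passed, with 2.36% of all genes past the threshold (0.841% higher, 1.52% lower in the chick). At an unadjusted p under 0.05 there were 5 of the 26 and 1824 of all 11063 genes. DESeq2 called SOX11 (0.88, adjusted p = 0.0146) and SOX6 (1.89, 0.0213) there, where edgeR gave 0.90 (SE 0.24, adjusted p = 0.0618) and 1.90 (SE 0.54, adjusted p = 0.0772). Between the layers none passed, with 4.5% of all genes past the threshold (2.47% higher, 2.03% lower in the chick). There 5 of the 26 and 2158 of all 11063 genes were at an unadjusted p under 0.05, and DESeq2 called SOX4 (1.05, adjusted p = 0.0277).

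For SOX6 the difference in the somatopleure against the lateral plate passed without chick somatopleure 15 (2.26, adjusted p = 0.0159) or emu somatopleure 5 (2.26, adjusted p = 0.0322), and so did that between the layers (0.0258 and 0.0482). For SOX5 the first passed without emu somatopleure 5 (adjusted p = 0.0418) and the second without chick somatopleure 15 (0.0434) or emu somatopleure 5 (0.0285). SOX4 passed between the layers without emu somatopleure 53 (0.029). SOX11 passed in the somatopleure against the lateral plate without emu lateral plate 23 (0.0461), and between the layers without emu splanchnopleure pool (0.045). In the splanchnopleure against the lateral plate SOX8 (2.47, SE 0.80, adjusted p = 0.0684) passed with DESeq2 (0.0375) and without chick splanchnopleure 61 (0.0414), and SOX9 (0.0443) and SOX13 (0.0351) without emu splanchnopleure pool. In each leave-out pass above, the library left out was the one of its tissue lying furthest against the difference. Its removal could only enlarge the difference, so these passes are no independent support. The rises of FOXP2 passed in the chick alone, but the difference between the species was 0.78 in the somatopleure (SE 0.34, adjusted p = 0.262) and 0.94 in the splanchnopleure (SE 0.37, adjusted p = 0.128). For SOX7, which fell in the chick somatopleure and not in the emu by the test, it was -1.39 (SE 0.53, adjusted p = 0.191). FOXP1 had differences of 0.13 (SE 0.34, adjusted p = 0.866) for splanchnopleure against lateral plate and -0.13 (SE 0.34, adjusted p = 0.88) between the layers.

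**Figure D5:**
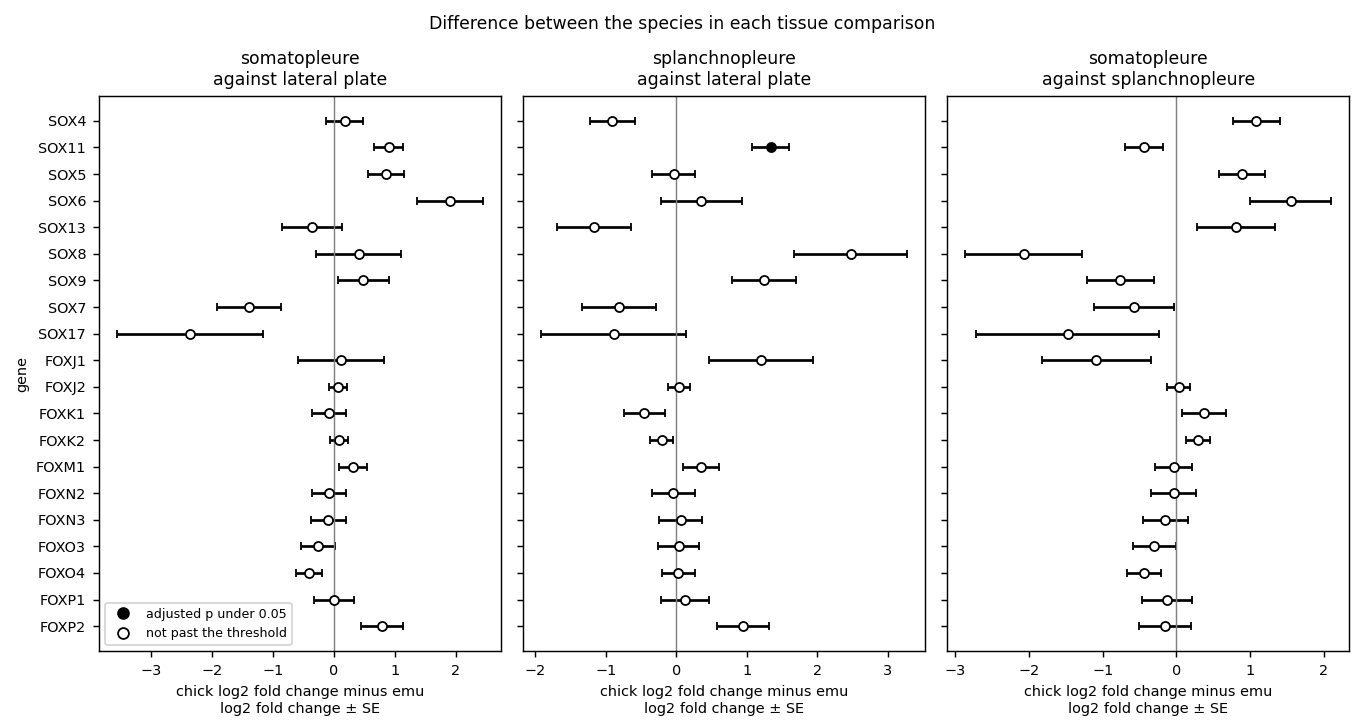
Chick log2 fold change minus emu log2 fold change, with its standard error, for the 20 genes tested in both species, in 3 tissue comparisons. The filled point, SOX11 in the splanchnopleure against the lateral plate at 1.34, has an adjusted p under 0.05, and open points do not.

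Other gene lists tied to these families had few genes tested. Of 16 cartilage genes under SOX9, 7 were tested in the chick and 10 in the emu. Against the lateral plate, COL9A2, a chain of a cartilage collagen, fell in the chick somatopleure (-1.32), where 6.28% of all genes fell. The list's median there was 0.04 against 0.00 for all genes. In the chick splanchnopleure COL9A2 (-1.62) and HAPLN1, which links hyaluronan to proteoglycan (-1.63), fell and COL11A1 (0.91) rose, 3 of 7, where 16.9% of all genes changed (median of the list -0.09, against 0.01 for all genes). In the emu splanchnopleure COL9A1 (2.29) and COL11A1 (0.94) rose and MATN4 (-2.77) fell, 3 of 10, where 20.6% of all genes changed (median 0.26, against 0.00). Of 15 neural crest genes linked to SOXE factors 8 were tested. Against the lateral plate, in chick somatopleure ALX1 (6.80) and TWIST1 (4.47) rose and none fell (median 0.90, against 0.00 for all genes, of which 3.52% rose). Both are also genes of limb and facial mesenchyme. In the emu splanchnopleure TFAP2B (-5.09), a factor of ectoderm and neural crest, and MSX1 (-1.78) fell and none rose (median -0.40, against 0.00 for all genes, of which 9.21% fell). Of 15 neural progenitor genes linked to SOXB factors 4 were tested. Against the lateral plate, the cadherin CDH2 fell in the chick somatopleure (-0.44), where 6.28% of all genes fell. In the chick splanchnopleure CDH2 (0.81) and NES, an intermediate filament gene (1.26), rose and FABP7, a fatty acid binding protein gene (-1.22), fell. These were 3 of 4, where 16.9% of all genes changed (median 0.17, against 0.01 for all genes). In the emu splanchnopleure CDH2 rose (1.38) and POU3F1 fell, where 20.6% of all genes changed (median 0.61, against 0.00).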

How the data were processed

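RNA counts of 17 early libraries were used, 9 of chick and 8 of emu, of 40 labelled libraries; the HH18 tables, with 18 per-sample columns and no gene symbols, were not used here. The deposited values are whole-number read counts per gene, not normalized. Per the submitters' processing notes, STAR, featureCounts, DESeq and the assembly galGal4 were named, without versions; the genome used for emu reads, the strand setting and the treatment of shared reads are not given in the sources used here. Counts of overlapping or similar genes are therefore uncertain. A difference in level between species also carries gene length and annotation and entered no test.

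Each species' table was fitted with edgeR 4.0.16 in R 4.3.3: filterByExpr (minimum count 10, minimum total 15), TMM, 1 mean per tissue, two-sided quasi-likelihood F tests, p-values adjusted by Benjamini and Hochberg across every tested gene, threshold 0.05. Species differences are interactions in a joint fit of both tables with 6 group means. Errors are standard errors (SE) of log2 fold changes. The scripts were tested on simulated data. No replicate pair was close enough to be 1 library deposited again (chi-square over its degrees of freedom was at least 4.05). Intervals are exact Clopper-Pearson at 95%, and a tissue with no count is set at 3 counts per library. Both cover counting error only, and the floor covers none on the counts of the higher tissue. Alternatives were RLE size factors, no filter, DESeq2 1.42.0, a fit of only the tissues compared, each library left out, and both libraries of discordant stage left out. The genes and lists were chosen with earlier results of these data known. Of the 31 genes, 1 that passed no threshold is not reported here; those past the threshold are given by library in the species where they passed, and other genes come from the lists, at most 2 per direction. Of 8 pathway lists, 2 are for subfamilies with no gene here and were not used. No sequences are shown, as none were in the files used.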

Additional observations from a re-analysis of the deposited data

Results flagged for a closer look

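SOX11 stood apart by a tested difference between the species: the chick log2 fold change of splanchnopleure against lateral plate minus that of the emu was 1.34 (SE 0.26, adjusted p = 0.00793, edgeR). Its mean level was 189 ± 28.9 CPM (SD, n = 3) in chick splanchnopleure against 255 ± 10.8 in chick lateral plate, and 31.1 ± 12.5 (n = 2) in emu splanchnopleure against 107 ± 15.9 (n = 3) in emu lateral plate. The level was lower in both splanchnopleure libraries of the emu, and in all 3 of the chick, than in every lateral plate library of the same species.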

How the results depend on the processing

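No paired analysis was possible because the early groups share no library numbers. Of 16 chick calls of these genes 11 were kept in all alternatives, of 14 emu calls 1 (SOX11, splanchnopleure against lateral plate), and the call between species was kept. No result reversed. Among the alternatives without a left-out library, the counts of changed genes in the chick stayed within 1.5 times the main count. In the emu, 1 gene of these families passed between the layers when only they were fitted, and 1 without both libraries of discordant stage, against 7; 1 passed against the lateral plate for the splanchnopleure without those libraries, against 7. DESeq2 called 2, 2 and 1 species differences (somatopleure and splanchnopleure against lateral plate, and between layers), against 0, 1 and 0. The cause of these shifts was not tested. The fits that leave libraries out also rest on fewer libraries.

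With each library left out, the chick counts ran from 4 to 6, 2 to 5 and 5 to 7 in the order of the report, the emu counts from 0 to 0, 1 to 4 and 0 to 7, and the species differences from 0 to 2, 1 to 3 and 0 to 2. Among all genes, leaving out 1 library gave 581 to 1055, 816 to 1481 and 1192 to 2164 calls in the chick (987, 1697 and 1927 with all), 0 to 1, 353 to 1607 and 263 to 1578 in the emu (0, 2196 and 1424), and 110 to 351, 230 to 889 and 198 to 758 species differences (261, 912 and 498). DESeq2 called 144 genes in the emu somatopleure against the lateral plate and 595 and 877 species differences in the somatopleure against lateral plate and between layers. Without both libraries of discordant stage there were 654 and 453 emu calls for the splanchnopleure against lateral plate and between layers, and 96 and 494 species differences against the lateral plate; fitting only the emu layers gave 562. Restricting the joint fit to 9736 genes that pass in each species, chosen after seeing the data, left the species counts at 0, 1 and 0. Genes with under 20 counts per library, such as FOXI3 and SOX10, are limited by depth.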

Other observations

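Levels of some genes lay apart between the species in all libraries, which was not tested because gene length and annotation also differ. Among them were SOX5, SOX11, FOXK2, FOXN2, FOXO4 and FOXP2, beside the genes given next. The share of all genes that did so was not counted. SOX30, known from male germ cells, had 0 to 4 counts per library in the chick (0.492 CPM at most) and 43 to 72 in the emu (5.27 to 9.29 CPM). FOXN3, a factor of the cell cycle checkpoint, was at 24.7 to 47.8 CPM in the chick and 4.77 to 7.86 in the emu. SOX17 was at 1.68 CPM at most in the chick and 2.63 to 20.9 in the emu.

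Of the 2 emu libraries of discordant stage, somatopleure 13, labelled HH10, had 64.2 CPM of SOX9, beside 36.7 and 40.1 in the other emu somatopleure libraries and 50.0 to 54.8 in lateral plate. Its SOX4 level was 15.4 CPM, beside 25.1 and 29.2 in the other emu somatopleure libraries and 16.0 to 22.7 in lateral plate. Its FOXP2 level was 13.4 CPM, beside 10.4 and 14.1 in the other emu somatopleure libraries and 3.54 to 7.02 in lateral plate. Lateral plate 1, labelled HH13, had 3.54 CPM of FOXP2, beside 6.86 and 7.02 in the other emu lateral plate libraries.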
